A study of Mus musculus with 12 samples.

Results

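The genes described are 10 members of the YAP/TAZ-TEAD and Hippo system: the coactivators Yap1 and Wwtr1 (TAZ), the transcription factors Tead1, Tead2, Tead3 and Tead4, the kinases Lats1 and Lats2, and the inhibitors Vgll4 and Amotl2. They were chosen by name, as array rows annotated to exactly 1 of these symbols, and all 10 were among the 19937 genes measured. Tead1 had 2 rows, of which the one with the higher mean was used. They were followed over 12 Affymetrix MoGene 1.0 ST arrays of C57Bl6 mouse liver cells and liver organoids, in 4 groups of 3 libraries. The first group was FACS-sorted liver cells, positive for YFP and uninduced, which the labels call hepatocytes. Another held organoids grown under wild-type conditions for 2 weeks. For the other groups Yap was switched on in the liver for 3 weeks and organoids were then grown for 2 weeks, with Yap off and no doxycycline (Yap-off organoids) or with Yap still on and doxycycline present (Yap-on organoids). The sources used here do not give the Yap construct, the promoter or cell type that drives it, or whether replicates came from separate animals, and p-values therefore cover library-to-library spread alone, possibly technical.

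The Hippo pathway is a kinase cascade that restrains organ growth, and it is best known in liver for limiting liver size and for keeping hepatocytes from taking on ductal features. The kinases LATS1 and LATS2 phosphorylate YAP and TAZ, which then stay in the cytoplasm or are degraded. Unphosphorylated YAP and TAZ enter the nucleus and bind TEAD proteins, which carry the DNA-binding domain that they lack. VGLL4 competes with YAP for TEAD, and AMOTL2 binds YAP and holds it at junctions. Amotl2 and Lats2 are themselves known as target genes of YAP, a negative feedback. Most of this control acts on protein, which the arrays did not measure.

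TEAD proteins recognise the word GGAATG, read CATTCC on the other strand. It was searched on both strands in the 250 bases before each start listed by RefSeq (GRCm38.p6). Of the 8 members with a promoter in that table, 5 held a match in at least 1 window, against 2060 of the 15613 genes in it (13.2%). The members' windows were rich in G and C, with a median of 70.0% against 56.8% over all windows. Lats1, Lats2 and Tead2 held no match, and for Tead1 and Tead4 the table gives no window. The windows of the 5 members with a match are shown because they place coactivators, a TEAD factor and both inhibitors side by side, with the matches in capitals. For Wwtr1 and Tead3, which have several windows, 1 is shown.
Yap1 (chr9:8004597-8004846, minus strand): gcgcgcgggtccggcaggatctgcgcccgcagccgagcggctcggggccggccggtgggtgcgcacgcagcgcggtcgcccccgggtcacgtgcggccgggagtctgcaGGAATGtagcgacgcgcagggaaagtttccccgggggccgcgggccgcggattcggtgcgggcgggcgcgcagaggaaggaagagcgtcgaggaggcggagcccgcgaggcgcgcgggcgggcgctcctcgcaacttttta
Wwtr1 (chr3:57575877-57576126, minus strand): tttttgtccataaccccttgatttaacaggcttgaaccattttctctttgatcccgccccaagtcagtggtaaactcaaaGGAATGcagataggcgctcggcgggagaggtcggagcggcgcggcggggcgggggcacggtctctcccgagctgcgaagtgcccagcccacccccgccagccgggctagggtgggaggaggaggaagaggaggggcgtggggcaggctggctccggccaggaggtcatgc
Tead3 (chr17:28350601-28350850, minus strand): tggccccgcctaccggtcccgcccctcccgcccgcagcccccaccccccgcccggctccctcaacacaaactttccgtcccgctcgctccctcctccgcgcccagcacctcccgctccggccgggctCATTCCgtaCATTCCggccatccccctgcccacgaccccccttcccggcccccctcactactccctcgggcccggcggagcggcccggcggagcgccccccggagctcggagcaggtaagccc
Vgll4 (chr6:114969204-114969453, minus strand): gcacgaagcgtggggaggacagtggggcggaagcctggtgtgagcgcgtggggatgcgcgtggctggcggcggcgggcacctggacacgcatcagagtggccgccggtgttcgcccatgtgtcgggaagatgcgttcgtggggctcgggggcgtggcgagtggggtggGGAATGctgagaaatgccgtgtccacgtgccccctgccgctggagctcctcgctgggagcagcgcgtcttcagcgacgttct
Amotl2 (chr9:102717554-102717803, plus strand): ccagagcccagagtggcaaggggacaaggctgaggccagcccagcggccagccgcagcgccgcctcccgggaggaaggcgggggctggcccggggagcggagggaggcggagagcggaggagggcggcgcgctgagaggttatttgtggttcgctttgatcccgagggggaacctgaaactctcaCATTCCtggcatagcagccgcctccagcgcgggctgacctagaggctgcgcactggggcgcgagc
The match began 65 bases before the start in Amotl2, 82 in Vgll4, 141 in Yap1 and 170 in Wwtr1. The Tead3 window held a pair of matches, 123 and 114 bases before the start, separated by 3 letters. A match is a string of letters and does not show that a TEAD protein binds there.

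All values are log2 of the deposited intensity, and values of different genes are not comparable as levels because each gene is read by its own probes. The median gene lay between 4.14 and 4.34 on the 12 arrays. Tead2 lay below that median in 3 libraries and Tead1 in 1, and the other 8 members lay above it everywhere. Grouping by label failed in the hepatocyte and wild-type organoid groups. The library labelled hepatocyte 2 correlated most closely across genes with that labelled wild-type organoid 3 (r = 0.951), and wild-type organoid 2 with hepatocyte 3 (r = 0.955). The mean of 8 macrophage markers was 11.19 in hepatocyte 2 and 10.16 and 10.98 in wild-type organoid 1 and 3, against 4.55 to 5.35 in all others. The mean of 8 endothelial markers was 7.45 to 9.86 in these libraries against 3.24 to 3.65. Cd14 went against the macrophage mean, at 7.91 in wild-type organoid 1, 8.43 in wild-type organoid 2, 9.01 to 9.22 in Yap-off and 9.555 to 9.88 in Yap-on organoids. Among the endothelial markers Egfl7 was at 5.84 in hepatocyte 2 and 5.91 in hepatocyte 1. The mean of 8 hepatocyte markers was 9.89 to 9.98 in the hepatocyte-labelled libraries and 8.92 to 10.59 in the wild-type organoids. It was 10.74 to 10.98 in the Yap-off and 5.02 to 5.26 in the Yap-on organoids, where Ttr (11.20 to 11.32) and Hnf4a (8.42 to 8.64) stayed high. This mean hides a split in Cyp2e1, at 10.14 in hepatocyte 2 and 10.03 and 9.90 in wild-type organoid 1 and 3. Cyp2e1 was at 3.16 and 3.22 in hepatocyte 1 and 3 and at 2.74 in wild-type organoid 2. Values of the hepatocyte-labelled and wild-type organoid groups are therefore given per library. Each comparison with them is also given without hepatocyte 2 and wild-type organoid 2, a choice made with the data known that says nothing of which label is wrong.

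The coactivators Yap1 and Wwtr1 followed different patterns. Yap1 stood at 7.45, 7.40 and 7.28 in Yap-on organoids, and 7.35, 7.21 and 6.88 in Yap-off organoids. It stood at 7.20, 4.93 and 7.07 in the hepatocyte-labelled libraries 1, 2 and 3 and at 6.70, 7.51 and 5.97 in wild-type organoid 1, 2 and 3. Its 3 lowest libraries were thus those with abundant macrophage transcripts, and the Yap-on and Yap-off groups overlapped. Wwtr1 stood at 7.10, 7.12 and 7.16 in the Yap-on organoids and at 8.08, 8.12 and 7.95 in the Yap-off organoids, so that these groups did not overlap. It stood at 9.03, 6.11 and 9.16 in the hepatocyte-labelled libraries and at 8.64, 7.91 and 6.996 in the wild-type organoids. The highest Wwtr1 values were those of hepatocyte 1 and 3, and wild-type organoid 1, with its high macrophage and endothelial markers, was the next.

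**Figure D1:**
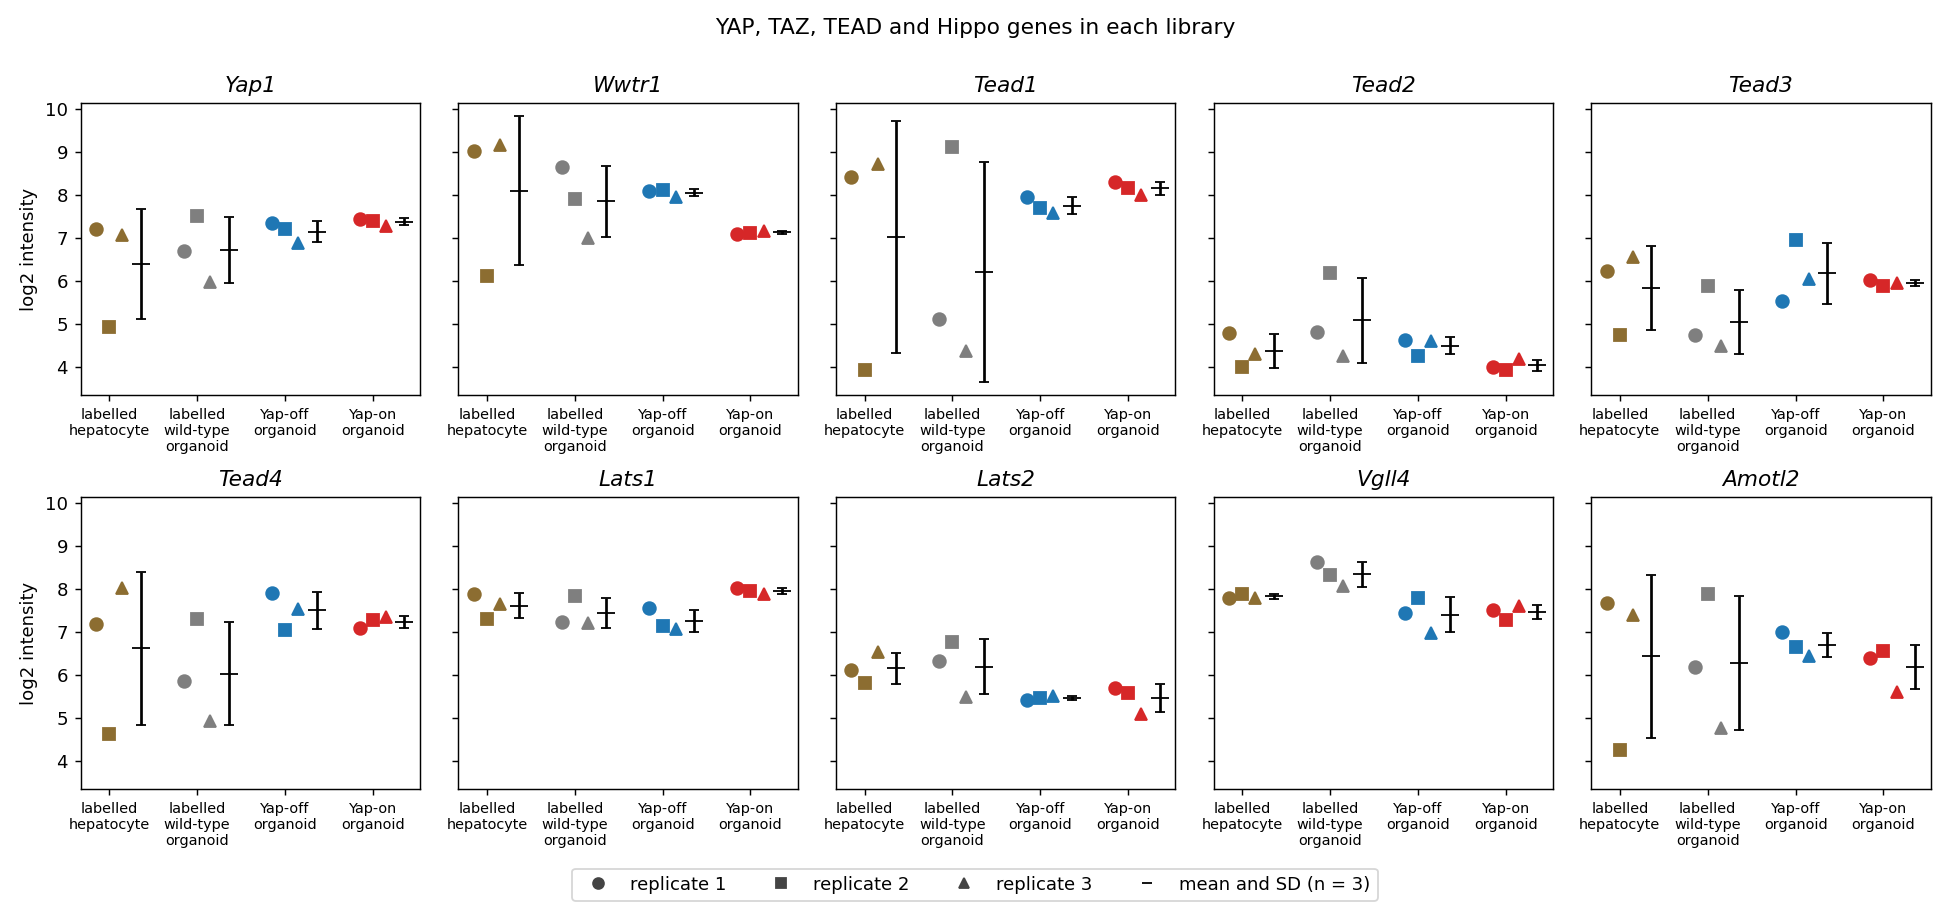
Log2 intensity (y axis) of the 10 genes in the 12 libraries, by labelled group (x axis). Points are libraries, with the shape giving the replicate number, and bars give the mean and SD of 3. Tead1 spans 3.92 to 9.12 and Lats1 7.06 to 8.01.

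Among the TEAD factors, Tead1 varied most. It stood at 8.29, 8.16 and 7.996 in Yap-on organoids, and 7.96, 7.70 and 7.58 in Yap-off organoids, at 8.41, 3.92 and 8.73 in the hepatocyte-labelled libraries and at 5.12, 9.12 and 4.37 in the wild-type organoids. Its range of 5.20 exceeded that of 96.7% of all genes. Its second row gave the same picture, from 4.33 in hepatocyte 2 to 8.84 in hepatocyte 3. Tead4 stood at 7.08, 7.28 and 7.33 in Yap-on organoids, and 7.91, 7.05 and 7.53 in Yap-off organoids, at 7.19, 4.62 and 8.02 in the hepatocyte-labelled libraries and at 5.86, 7.30 and 4.92 in the wild-type organoids. Tead3 was the most variable member in the Yap-off organoids, at 5.54, 6.95 and 6.05, against 6.03, 5.88 and 5.95 in the Yap-on organoids. It stood at 6.24, 4.73 and 6.55 in the hepatocyte-labelled libraries and at 4.74, 5.88 and 4.49 in the wild-type organoids. Yap1, Tead1, Tead3 and Tead4 shared their 3 lowest libraries, hepatocyte 2 and wild-type organoid 1 and 3, as did 9.87% of all genes. Tead2, known as a TEAD factor of embryonic tissue, stayed near the median gene, at 4.001, 3.94 and 4.18 in Yap-on organoids, and 4.62, 4.27 and 4.61 in Yap-off organoids and at 4.80, 4.01 and 4.31 in the hepatocyte-labelled libraries. Only wild-type organoid 2 stood out, at 6.18 against 4.80 and 4.26 in wild-type organoid 1 and 3.

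The kinases were steadier. Lats1 had the smallest range of the 10 members, 0.95, which exceeded that of 41.5% of all genes. It stood at 8.01, 7.95 and 7.88 in the Yap-on organoids, level with or above every other library, and at 7.55, 7.13 and 7.06 in the Yap-off organoids. The hepatocyte-labelled libraries (7.87, 7.30 and 7.66) and wild-type organoid (7.24, 7.83 and 7.21) lay between these extremes. Lats2 stood at 5.69, 5.59 and 5.09 in Yap-on organoids, and 5.41, 5.45 and 5.52 in Yap-off organoids, against 6.11, 5.82 and 6.52 in the hepatocyte-labelled libraries and 6.31, 6.76 and 5.495 in the wild-type organoids. Both groups with Yap induction thus lay below every hepatocyte-labelled library.

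The inhibitors differed from each other. Vgll4 did not follow the split of the control libraries: it stood at 7.79, 7.89 and 7.79 in the hepatocyte-labelled libraries and at 8.63, 8.31 and 8.06, its highest values, in the wild-type organoids. In the Yap-off organoids it stood at 7.43, 7.78 and 6.97 and in the Yap-on organoids at 7.5003, 7.27 and 7.60. Amotl2 varied over 3.62, with 7.66, 4.25 and 7.40 in the hepatocyte-labelled libraries and 6.18, 7.87 and 4.76 in the wild-type organoids. It stood at 7.003, 6.64 and 6.45 in Yap-off organoids, and 6.40, 6.55 and 5.59 in Yap-on organoids. In bulk samples, fewer cells of a type and less RNA per cell cannot be told apart. The mean of 7 biliary markers was also lowest in hepatocyte 2 and wild-type organoid 1 and 3 (3.91 to 4.13, against 5.52 or more elsewhere). Krt19, Krt7, Sox9 and, narrowly, Epcam were lowest there. Muc1 was instead higher in hepatocyte 2 (4.07) and wild-type organoid 3 (4.73) than in any other library outside the Yap-on organoids. Cldn4 in hepatocyte 2 (4.66) lay above hepatocyte 1 and 3 (4.29 and 4.55). Prom1 in wild-type organoid 3 (3.52) lay above Yap-off 1 and 3 (3.10 and 3.17). The mean of 8 lymphocyte and neutrophil markers was highest in hepatocyte 2 and wild-type organoid 1 and 3 (6.35 to 7.88, against 3.51 or less). In hepatocyte 2 it rested on Ptprc, S100a8 and S100a9 (9.97, 11.70 and 11.59), while Cd3e was at 3.85 and Nkg7 at 3.99. Wild-type organoid 1 and 3 had Cd3e at 8.37 and 6.60 and Nkg7 at 9.95 and 9.70. Ly6g lay below the median gene in every library, and was highest in hepatocyte 2 (3.77), with 2.87 in both wild-type organoid 1 and 3. The biliary, lymphocyte and neutrophil means, and the macrophage and endothelial ones given above, moved with the low values of Yap1, Tead1, Tead3 and Tead4. Their part in these values was not tested. Amotl2 was lowest in hepatocyte 2 and wild-type organoid 3, but wild-type organoid 1 lay among the Yap-on values for it.

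**Figure D2:**
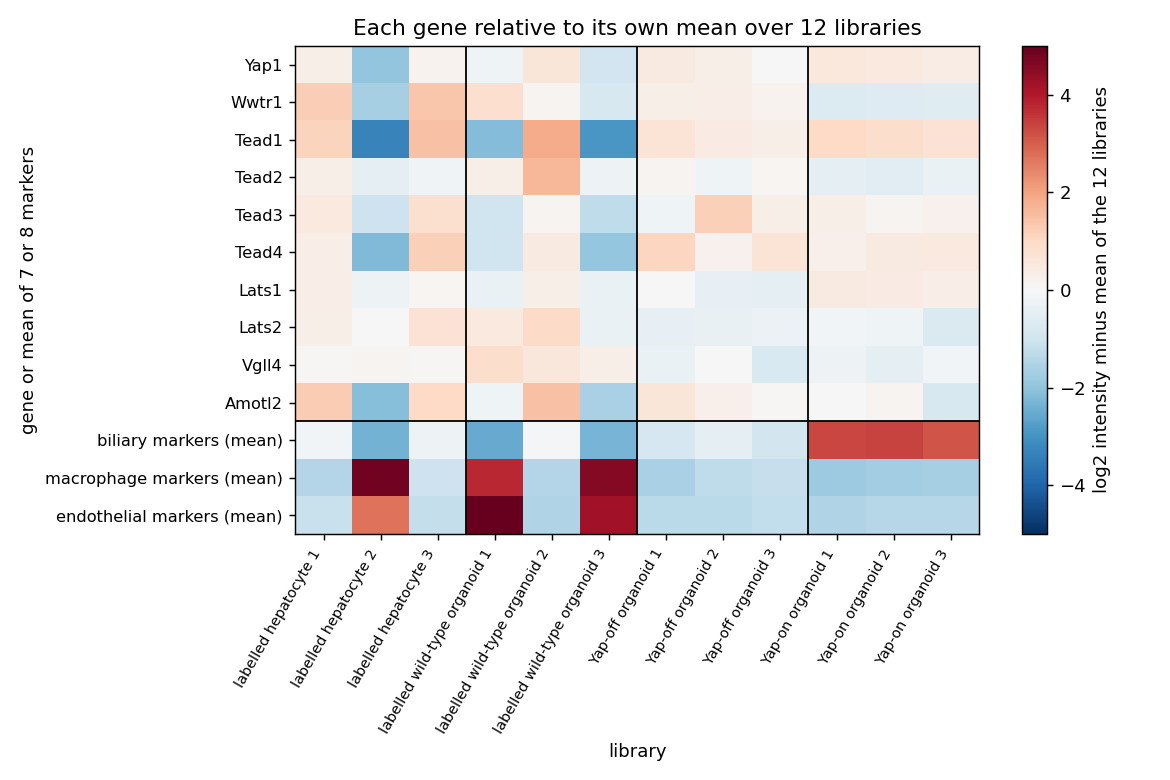
Log2 intensity of each gene, and of the mean of 7 biliary, 8 macrophage and 8 endothelial markers, minus its own mean over the 12 libraries (colour), by library (columns). Tead1, Tead4, Yap1 and Amotl2 are blue in hepatocyte 2 and wild-type organoid 3, where macrophage and endothelial markers are red, and Vgll4 is not.

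Setting Yap-on against Yap-off organoids asks how these genes stand when Yap stays on in culture rather than being switched off. TAZ and TEAD2 transcripts were lower and LATS1 transcripts higher with Yap on, and those of Yap1 itself differed little. Wwtr1 averaged 7.13 ± 0.03 (SD, n = 3) in Yap-on organoids, and 8.05 ± 0.09 in Yap-off organoids and fell by 0.93 on the log2 scale, 1.90-fold (SE 0.09, 95% interval -1.15 to -0.71, limma adjusted p = 0.000509). Lats1 rose by 0.70, 1.62-fold, from 7.25 ± 0.26 to 7.94 ± 0.07 (SE 0.15, interval 0.35 to 1.04, adjusted p = 0.0119). Tead2 fell by 0.46, 1.37-fold, from 4.50 ± 0.20 to 4.04 ± 0.13, near the median gene (SE 0.13, interval -0.77 to -0.14, adjusted p = 0.0402). Of the 10 members 1 rose, 2 fell and 7 did not pass, while 31.2% of all genes passed in either direction, so that the members' share was close to the background. The medians were -0.11 for the members and -0.08 for all genes. The groups did not overlap for 4 members, Tead1 being the other, against 53.5% of all genes.

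Wwtr1 passed without any 1 of the 6 libraries, with differences from -0.98 to -0.89 (adjusted p at most 0.00502). Lats1 did not pass without Yap-on 1 (0.67, adjusted p = 0.0533), and Tead2 passed without Yap-off 2 alone of the 6 libraries. Tead2 also missed the threshold after repeated quantile normalization (adjusted p = 0.0623) and with arrays centred on their medians (adjusted p = 0.0598). None of the 3 passed when all 12 arrays shared 1 estimate of spread (adjusted p = 0.429 for Wwtr1, 0.0629 for Lats1 and 0.502 for Tead2), where 11.5% of all genes passed and the standard error of Wwtr1 was 0.71 rather than 0.09.

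Yap1, the mouse gene of the protein that the labels give as on or off, averaged 7.38 ± 0.08 in Yap-on organoids, and 7.15 ± 0.24 in Yap-off organoids. The difference of 0.23 (SE 0.14, interval -0.10 to 0.57, adjusted p = 0.237) was no larger than the spread and turned to -0.02 after repeated quantile normalization. The labels do not say whether Yap1 probes read the transgene. Within each array, Yap1 minus Wwtr1 was 0.35, 0.28 and 0.13 in the Yap-on organoids and -0.73, -0.91 and -1.08 in the Yap-off organoids. The shift between the 2 coactivators was 1.16, without overlap, and an exact two-sided permutation test gave p = 0.1, the smallest that 3 libraries against 3 allow. It is made of the Wwtr1 difference of -0.93 and the uncalled Yap1 difference of 0.23, and is not a separate result.

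Tead1 was higher by 0.40 in the Yap-on organoids without overlap, but missed the threshold (SE 0.14, adjusted p = 0.0624). With the replicate number as a block it passed (adjusted p = 0.0462), as it did with array weights (adjusted p = 0.0316). After repeated quantile normalization the difference was 0.21 (adjusted p = 0.28), and without 1 library it ran from 0.32 to 0.51 (adjusted p from 0.0217 without Yap-off 1 to 0.198 without Yap-on 1). Tead4 (-0.26, interval -0.78 to 0.25) and Tead3 (-0.22, interval -0.999 to 0.55) did not pass, and the sign for Tead3 turned without Yap-off 2 (0.16). Lats2 was the closest to no difference, at -0.0044 with an interval from -0.40 to 0.39. Without 1 library Tead4 ran from -0.49 (without Yap-off 2) to -0.05 (without Yap-off 1). Amotl2 differed by -0.52 (interval -1.16 to 0.13, adjusted p = 0.182), with a range from -0.70 (without Yap-on 2) to -0.22 (without Yap-on 3). Vgll4 differed by 0.07 (interval -0.43 to 0.56), which turned to -0.17 after repeated quantile normalization.

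**Figure D3:**
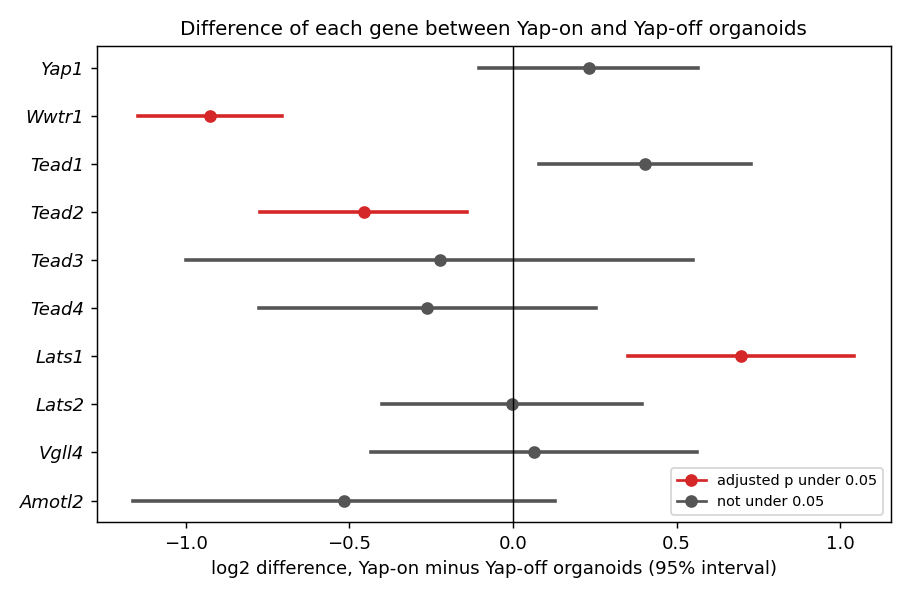
Log2 difference, Yap-on minus Yap-off organoids (x axis), of the 10 genes (y axis), with the 95% interval of the fit on the 6 arrays. Red marks an adjusted p under 0.05: Wwtr1 and Tead2 lie left of 0 and Lats1 right of it.

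These organoid groups also differed in their cell markers and in sex-linked genes. The mean of 7 biliary markers was 9.60 to 9.82 in Yap-on organoids, and 5.52 to 5.94 in Yap-off organoids, and the hepatocyte markers went the other way as given above. Xist was at 3.14 to 3.20 in Yap-on libraries, and 8.49 to 9.20 in Yap-off libraries, and the Y-linked Eif2s3y at 7.13 to 7.42 and 2.5004 to 2.85. The part of either in the differences of Wwtr1, Lats1 and Tead2 was not tested.

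The rest of the pathway was read from lists of other Hippo genes, set against 19.1% of all genes called higher and 12% called lower with Yap on. In the core cassette, 2 of 5 measured genes rose and none fell. Nf2, whose product merlin activates the cascade, rose by 0.90 (SE 0.16, adjusted p = 0.00637), and Stk4 (MST1), the kinase above LATS, by 0.68 (SE 0.18, adjusted p = 0.029). The LATS cofactors Mob1b (0.44), Mob1a (0.42) and the MST scaffold Sav1 (0.08) did not pass, and the list had a median of 0.44 against -0.08 for all genes. Without 1 library, 1 to 3 core genes rose, where 18.9% to 39.4% of all genes passed in either direction. With all 12 arrays the count was 0 (adjusted p = 0.0946 for Nf2 and 0.0644 for Stk4), where 7.09% of all genes rose.

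Of 28 upstream regulators and junction proteins 12 rose, 1 fell and 15 did not pass, with a median of 0.47. Patj, a scaffold of the apical Crumbs complex, rose by 1.97 (SE 0.16, adjusted p = 0.000191), from 5.75, 5.29 and 5.41 in the Yap-off to 7.61, 7.53 and 7.23 in the Yap-on organoids. Its partner Mpp5 (PALS1) rose by 1.05, alpha-catenin (Ctnna1), which holds YAP at adherens junctions, by 1.08, the polarity scaffold Dlg1 by 0.97, and Taok3, a kinase that can activate MST, by 1.02. Fat4, a giant cadherin, fell by 0.39 (adjusted p = 0.0235), but at 2.65 and 3.03 both groups lay below the median gene. Without 1 library from 9 to 16 of these genes rose, where 18.9% to 39.4% of all genes passed in either direction. Both were highest without Yap-off 1. With all 12 arrays 5 rose, where 7.09% of all genes did. Of the genes named, Ctnna1 and Taok3 were among these 5, and Patj (adjusted p = 0.109), Mpp5 (0.349) and Dlg1 (0.266) were not. Across all libraries the widest ranges were those of Fat1 (4.38) and Wwc1 (KIBRA, 4.22), which were low in hepatocyte 2 and wild-type organoid 1 and 3 as Tead1 was, and of Rassf5 (4.22), which was highest there (7.73, 6.48 and 6.49).

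Among 8 measured cofactors of TEAD or its partners, 3 fell, 2 rose and 3 did not pass, with a median of -0.35. Vgll3, a vestigial-like protein that binds TEAD, showed the largest change of all lists. It stood at 6.85, 6.54 and 6.95 in Yap-off organoids, and 2.904, 3.09 and 3.11 in Yap-on organoids and fell by 3.74 (SE 0.14, adjusted p = 3.52e-06), to a level below the median gene, which may limit the size of the fall. In the hepatocyte-labelled libraries it stood at 7.99, 3.17 and 7.94 and in the wild-type organoids at 3.31, 6.87 and 3.00. Vgll3 was thus low in the Yap-on organoids and in the macrophage-rich libraries alike. With all 12 arrays its adjusted p was 0.0976. The AP-1 subunits, which bind near TEAD at many enhancers, went both ways: Fosl1 fell by 1.28 and Jun by 0.63, and Fos rose by 0.79. Runx1 rose by 0.40. Without 1 library 0 to 2 rose and 1 to 5 fell, where 18.9% to 39.4% of all genes passed in either direction. With all 12 arrays none of the 8 passed, where 11.5% of all genes did.

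Of 19 known YAP/TEAD target genes other than Lats2 and Amotl2, 6 rose, 7 fell and 6 did not pass, with a median of 0.30. Myof rose by 1.63, F3 (tissue factor) by 1.36, Dock5 by 0.97, Gadd45a by 0.77 and Ccn2 by 0.77. Axl fell by 2.71, Igfbp3 by 1.82, Nuak2 by 1.58, Ankrd1 by 1.26 and Tgfb2 by 1.12. Tgfb2 fell to 3.49, below the median gene. Another gene counted as lower lay below it in both groups (2.72 in Yap-on and 3.02 in Yap-off organoids). The targets therefore did not move in 1 direction, and Lats2 and Amotl2, the members that are also targets, were among those that did not pass. Without 1 library 4 to 8 rose and 5 to 7 fell, where 18.9% to 39.4% of all genes passed in either direction. With all 12 arrays 1 rose and 1 fell, where 7.09% and 4.36% of all genes did.

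**Figure D4:**
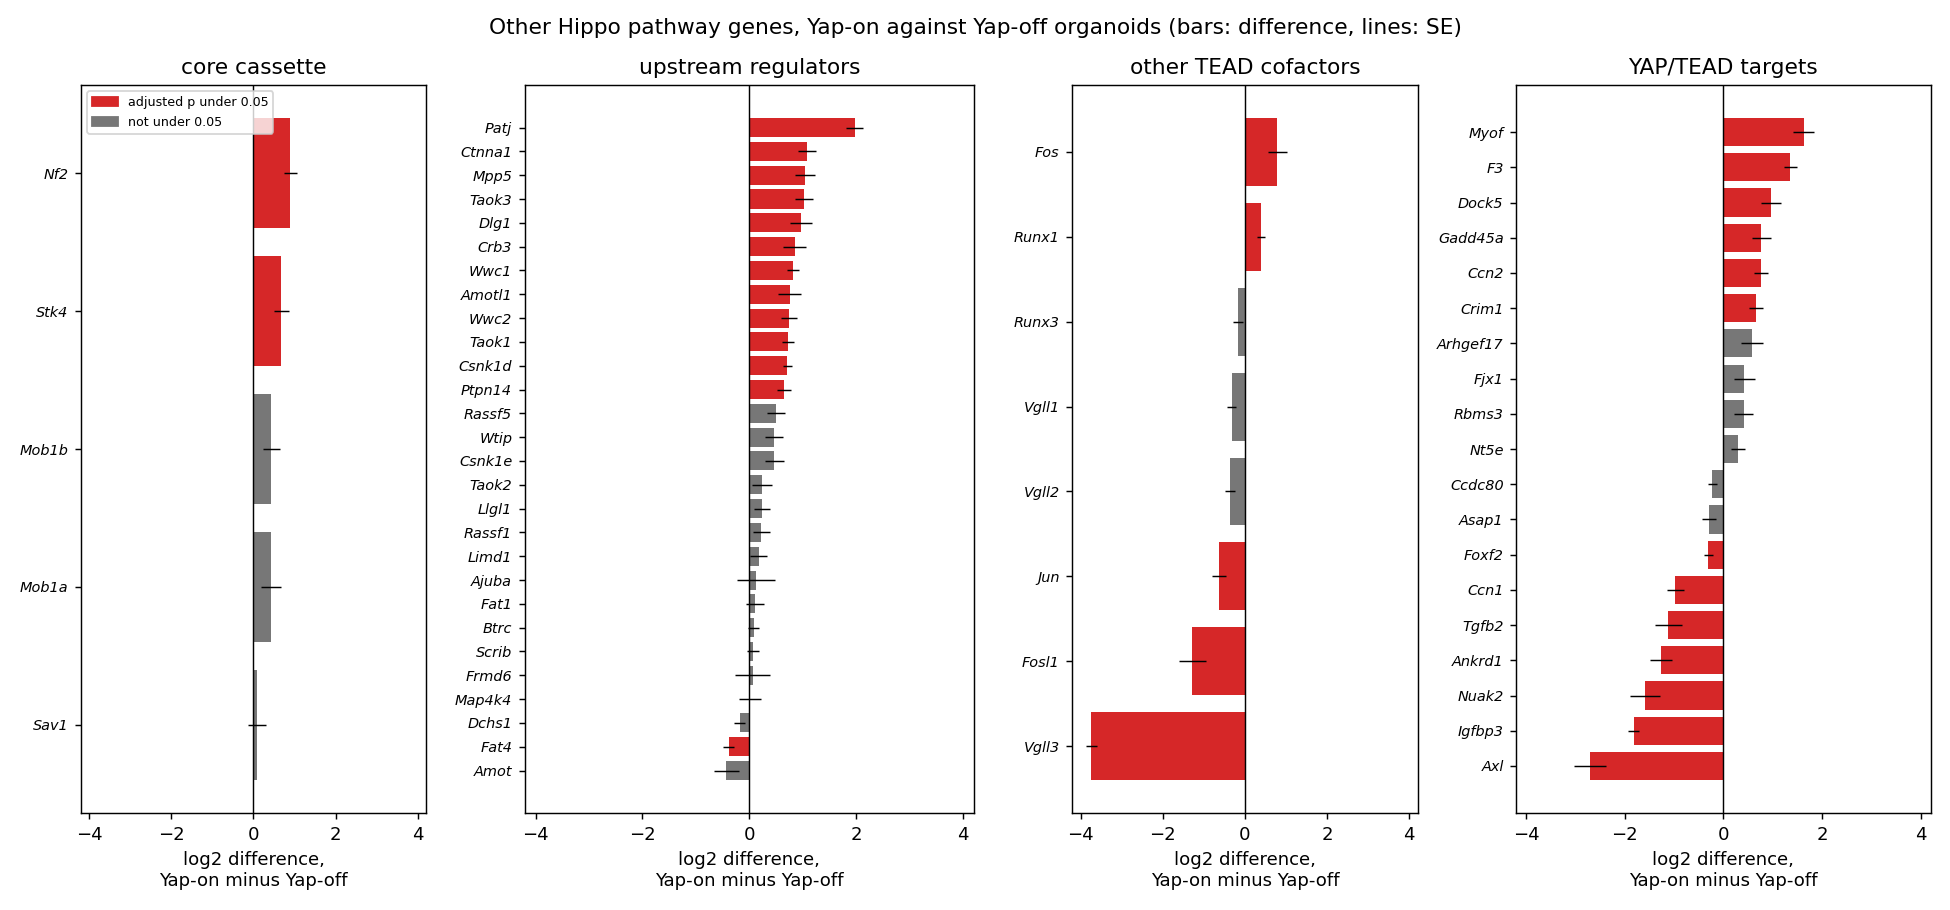
Log2 difference, Yap-on minus Yap-off organoids (x axes), with its SE, for the other Hippo genes by list (y axes). Red marks an adjusted p under 0.05 in the fit on 6 arrays. The upstream regulators lie mostly right of 0, Vgll3 lies far left, and the targets lie on both sides.

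Against wild-type organoids the comparison asks how organoids with a history of Yap induction differ from those without. Xist was at 3.14 to 3.30 in the wild-type organoids, as low as in the Yap-on and unlike the Yap-off libraries. It was at 8.82 and 8.999 in hepatocyte 1 and 3 and at 2.995 in hepatocyte 2, so that sex-linked expression moved with the comparisons of Yap-off with wild-type organoids and of hepatocyte 1 and 3 with Yap-on or wild-type organoids, and its part in them was not tested. For both Yap-off and Yap-on organoids, 0 of the 10 members passed in limma on the 6 arrays, where 0.306% and 3.51% of all genes passed. At an unadjusted p under 0.05 there were 1 and 2 members, where 2687 and 3693 of 19937 genes were. With all 12 arrays 1 member passed in each comparison, Vgll4, where 2.61% and 5.47% of all genes passed and 1.19% and 1.45% were lower. Vgll4 averaged 8.33 ± 0.29 in the wild-type organoids, above every Yap-off and Yap-on library, while 19.3% of all genes showed no overlap between Yap-off and wild-type organoids. It differed by -0.94 in the Yap-off (SE 0.27, adjusted p = 0.235; 0.0495 with 12 arrays) and by -0.87 in the Yap-on organoids (SE 0.19, adjusted p = 0.0819; 0.0411 with 12 arrays). Both comparisons share the wild-type libraries. Lats1 and Tead2 also showed no overlap between Yap-on and wild-type organoids, with differences of 0.52 (adjusted p = 0.256) and -1.04 (adjusted p = 0.303), as did 26% of all genes.

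Without wild-type organoid 2, the macrophage-rich wild-type organoid 1 and 3 remained. The Yap-off organoids were then higher in Tead1 (3.00, SE 0.26, adjusted p = 0.000653), Tead4 (2.11, adjusted p = 0.00895) and Tead3 (1.56, adjusted p = 0.0372), where 13% of all genes were higher and 23.3% passed in either direction. The Yap-on organoids were higher in Tead1 (3.40, SE 0.24, adjusted p = 0.000132), Tead4 (1.84, adjusted p = 0.00294), Tead3 (1.34, adjusted p = 0.000456), Yap1 (1.04, adjusted p = 0.012) and Lats1 (0.72, adjusted p = 0.0029). They were lower in Vgll4 (-0.88, adjusted p = 0.0159), while 25.9% of all genes were higher, 16.1% lower and 42% passed in all. The size of the Tead1 difference thus rested on 1 library, being 1.54 and 1.95 with it and neither passing (adjusted p = 0.598 and 0.41).

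Against the hepatocyte-labelled libraries, again 0 of 10 members passed for Yap-off and Yap-on organoids on the 6 arrays, where 0.717% and 8.82% of all genes passed. None passed with all 12 arrays either, where 1.9% and 6.19% of all genes did. At an unadjusted p under 0.05 there were 1 and 2 members, where 2486 and 5110 of 19937 genes were. Lats2 showed no overlap in either comparison and differed by -0.69 (SE 0.20, adjusted p = 0.235) and -0.70 (SE 0.25, adjusted p = 0.159), and Vgll4 showed none either (-0.43 and -0.36, adjusted p = 0.515 and 0.122). For the Yap-on organoids Yap1 (0.98, adjusted p = 0.366) and Lats1 (0.33, adjusted p = 0.265) did not overlap with them. Without overlap were 19.6% and 39.6% of all genes.

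Without hepatocyte 2 the libraries hepatocyte 1 and 3 remained. Wwtr1 was then lower in the Yap-off (-1.04, SE 0.13, adjusted p = 0.0082) and the Yap-on organoids (-1.97, SE 0.10, adjusted p = 2.15e-05), and Lats2 by -0.86 in both (adjusted p = 0.0289 and 0.0219). Tead1 was lower in the Yap-off organoids (-0.82, adjusted p = 0.0416), turning from 0.72 with hepatocyte 2. Amotl2 (-1.35, adjusted p = 0.0114) and Tead3 (-0.44, adjusted p = 0.0385, against 0.11 with hepatocyte 2) were lower in the Yap-on organoids. These were 3 and 4 members, all lower, where 5.9% and 14.7% of all genes were lower and 9.26% and 32.4% passed in either direction. With hepatocyte 2, the lowest library for Wwtr1, these Wwtr1 differences were -0.05 (adjusted p = 0.989) and -0.97 (adjusted p = 0.48), so that both calls rested on leaving it out.

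Between the wild-type organoids and the hepatocyte-labelled libraries 0 of 10 members and 0 of all genes passed on the 6 arrays. At an unadjusted p under 0.05 there were 1 member, Vgll4, and 731 genes, and 0 members and 10 genes (0.0502%) passed with all 12 arrays. Vgll4 was higher in every wild-type organoid library than in any labelled hepatocyte, by 0.51 (SE 0.18, adjusted p = 0.985), as groups did not overlap for 7.64% of all genes. Without both doubtful libraries Tead1 (-3.82, SE 0.29), Tead4 (-2.22), Amotl2 (-2.06) and Tead3 (-1.78) were lower in wild-type organoid 1 and 3 than in hepatocyte 1 and 3 (adjusted p = 0.000881, 0.0153, 0.029 and 0.00294), where 15.1% of all genes were lower and 24.8% passed. For Vgll4, the wild-type organoids were the highest of the 4 labelled groups, followed by the hepatocyte libraries, and the Yap-on and Yap-off groups did not differ beyond their spread.

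The genes with the profile most like each member over the 12 arrays were found as those with the smallest root mean square difference after each gene was centred on its mean, among 7611 genes that varied by at least 1.5. Nearest to Yap1 were Rbfox2, Tmem263 and Tmsb10 (0.22 log2 units each). Nearest to Wwtr1 were F2r (0.33), Mtss1 (0.36) and Peak1 (0.38). The TEAD factors had separate neighbours: Mfge8, Fads3 and Cldn12 for Tead1 (0.32 to 0.36), Fmr1nb, Pcdh9 and Angpt1 for Tead2 (0.23 to 0.25), Nup50, Hacd1 and Sar1b for Tead3 (0.25 to 0.27), and Pdlim7, Cxadr and Npdc1 for Tead4 (0.34 to 0.35). Bcar1, Ppfibp1 and Pgrmc1 were nearest to Amotl2 (0.31 to 0.40), Zfp579, Zfp827 and Selenom to Lats2 (0.28 to 0.34), and Creb1, Adgrl1 and Mdfic to Vgll4 (0.28 to 0.30). No gene appeared in more than 1 of these lists, and no member was among the nearest genes of another. Only 3 genes per member were kept and values were not scaled, so that the size of a range counts too. Separate lists therefore do not show separate patterns, and Tead1, Tead3 and Tead4 shared their 3 lowest libraries. Lats1 varied too little to enter.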

How the data were processed

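Per the labels' protocols, total RNA came from Qiagen microRNEasy extraction and was labelled with Nugen Pico WT kits, on 12 arrays. The deposited intensities were made by the authors with RMA, per the submitters' processing notes, whose version, software and genome build are not given in the sources used here. They lie on a linear scale, with medians of 13.6 to 15.6 per array, and log2 was taken here. Of 34760 rows, 21640 naming 1 gene in GEO's platform annotation were kept (1321 naming several and 11799 unlisted were left out), and each of 19937 genes was read from its row of highest mean. Entrez IDs matched RefSeq for 21553 rows and changed 0 symbols. No filter on low values was used. Scan dates were not used here. The number of arrays limits the precision.

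Each comparison was fitted on its 6 arrays with limma 3.58.1 (lmFit and eBayes, R 4.3.3, 4 residual degrees of freedom), adjusted by Benjamini-Hochberg over all genes and called under 0.05. All 12 arrays in 1 fit, with 1 spread for groups that differ in spread, was an alternative, beside those of the closing section. The fit was tested on simulated data in which few genes were changed, 100 for each size of difference. Each gene's SD within a group of 3 served there as its true spread. The share of false calls, which depends on these settings, exceeded 0.05 in every comparison, on 6 and on 12 arrays. Calls near the threshold are therefore less certain than their adjusted p. Members, gene lists and fits were chosen with earlier results of these data known, including that fits on 6 arrays call more genes between Yap-on and Yap-off organoids. Named genes are all members, all core cassette genes, from each other list up to 5 called each way between Yap-on and Yap-off organoids and the 3 with the widest range, and the 3 nearest profiles per member that varied by at least 1.5. Stk3 and Runx2 of the lists had no row naming 1 gene, nor did the biliary marker Spp1, and another listed gene is not reported here. Deviations from group means of Yap-on and Yap-off libraries with the same replicate number correlated at 0.07, 0.03 and -0.06 over genes. Figures were drawn with matplotlib 3.10.9.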

Additional observations from a re-analysis of the deposited data

How the results depend on the processing

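The count of members called between Yap-on and Yap-off organoids was 3. It was 0 with all 12 arrays, where 11.5% of all genes passed. Without 1 library it was 1 to 3 (1 without Yap-on 1), where 18.9% to 39.4% of all genes passed. It stayed within 1.5 times under the other alternatives. With the replicate number as a block, which the labels do not tie to shared animals or days, it was 4, and the block changed no count in the other comparisons. There it was 0 and became, without 1 library, 0 to 3 for Yap-off against wild-type organoids, 0 to 6 for Yap-on against wild-type organoids (both highest without wild-type organoid 2), 0 to 3 for Yap-off and 0 to 4 for Yap-on organoids against hepatocyte libraries (both highest without hepatocyte 2), and 0 throughout for wild-type organoids against hepatocyte libraries. In these 5 comparisons, leaving out the doubtful libraries (chosen with the data known) gave 3, 6, 3, 4 and 4. There 23.3%, 42%, 9.26%, 32.4% and 24.8% of all genes passed. With array weights the counts were 5, 8, 1 and 2 in the first 4, and with all 12 arrays 1 in each comparison with wild-type organoids. The share of all genes called with array weights, with the block or, in these 5 comparisons, without any other 1 library was not computed. Those counts can therefore not be read as results about the members.

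Signs that turned were mostly of small, uncalled differences. Between Yap-on and Yap-off organoids, repeated quantile normalization gave -0.0175 for Yap1 and -0.17 for Vgll4, and Lats2 was 0.0409 on centred arrays and 0.0532 with array weights. Without 1 library Tead3 ran from -0.54 to 0.16, Lats2 from -0.12 to 0.18 and Vgll4 from -0.14 to 0.26. Against the hepatocyte libraries, repeated quantile normalization gave 0.0296 for Wwtr1 in Yap-off and -0.0502 for Tead3 in Yap-on organoids, array weights -0.66 for Tead1 in Yap-off and -0.41 for Tead3 in Yap-on organoids, and leaving out hepatocyte 2 gave -0.82 and -0.44 for these. Without 1 library Wwtr1 (-1.04 to 0.48) and Tead1 (-0.82 to 1.58) turned in Yap-off and Tead3 (-0.44 to 0.47) and Amotl2 (-1.35 to 0.36) in Yap-on organoids, and Tead1 (-2.37 to 0.10), Tead4 (-1.58 to 0.12) and Amotl2 (-1.26 to 0.59) in wild-type organoids. The cause was not tested. Members near the median gene, such as Tead2, are limited by background.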
